A study of Arabidopsis thaliana with 13 samples.

Results

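Long non-coding RNA (lncRNA) genes are transcribed stretches of the genome without a recognised protein product. In plants, some lncRNAs act on the gene they overlap or on a neighbouring gene, and the RNA or the act of transcription can matter. CRY2 is a blue-light photoreceptor of the plant nucleus. PIF4 and PIF5 are bHLH transcription factors that bind DNA directly and promote elongation growth. The members described here were all nuclear genes of the lncRNA class in the RefSeq gene table of Arabidopsis thaliana, each extended by 200 bp on both sides. There were 3480 such loci among 37899 nuclear genes, and a locus counted as occupied by a protein when the summit of one of that protein's peaks, its point of highest signal, fell inside the extended locus.

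The peaks came from chromatin immunoprecipitation sequencing of whole seedlings of the Columbia ecotype, grown for 5 days in continuous white light and then held in low blue light for 16 h. The lines carried 3xFlag-6xHis-CRY2 under the UBQ10 promoter, PIF4-3xFlag-6xHis, or PIF5-Flash (9xMyc-6xHis-3xFlag). An anti-FLAG antibody was used on 2 CRY2, 3 PIF4 and 2 PIF5 libraries, and the controls were 2 IgG mock precipitations from each of the same lines. The CRY2 precipitation started from 18 g of material and added the cross-linker ethylene glycol bis-succinimidylsuccinate, whereas the PIF experiments used 2 g and no such step. Protein and protocol therefore cannot be told apart wherever CRY2 is set beside the PIFs. The UBQ10 promoter is broadly active, so the CRY2 transgene is not under its own control.

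The authors deposited 1 pooled list of peaks per protein, with 7320 CRY2 peaks, 9925 PIF4 peaks and 3767 PIF5 peaks. There was therefore no value per library, no spread between replicates and no test over samples for any result below. Differences are given with 95% intervals that cover counting error only, and neighbouring loci can share a peak. The files give no read depth. Peak strength is the fold enrichment over control in the authors' lists, which is compared only within a list because each protein had its own IgG libraries.

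The lncRNA loci were short, with a median length of 343 bp (range 200 to 9515 bp), against 2078 bp for protein-coding genes. Of the 3480 loci, 1421 (40.8%) overlapped a protein-coding gene by at least 1 bp, and 927 of these lay wholly inside coding genes. The other 2059 overlapped none and are called separate loci here. Separate loci had a median length of 314 bp and lay a median of 754 bp from the nearest coding gene, with 264 at up to 200 bp and 822 at over 1000 bp. At an overlapping locus a summit cannot be ascribed to the lncRNA gene rather than to the coding gene, so the 2 classes were kept apart. None of the 3480 loci has a symbol in the table beyond its locus tag, so loci are named by tag and described by their coding neighbours.

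A summit of at least 1 of the proteins fell in 708 lncRNA loci (20.3%, Wilson interval 19.0 to 21.7), beside 27.1% of all nuclear genes, and 2772 loci held none. PIF4 was found at the most loci, 529 (15.2%, 14.0 to 16.4), beside 18.2% of all nuclear genes extended in the same way. CRY2 was found at 392 loci (11.3%, 10.3 to 12.4), beside 17.1% of all nuclear genes. PIF5 was found at 219 loci (6.29%, 5.53 to 7.15), beside 7.17%. For CRY2 and PIF4 the intervals lay below the share of all genes, and for PIF5 the upper bound of 7.15% lay just under the 7.17%. Without the flanks the order turned round for the PIFs, at 10.2% of lncRNA loci against 9.58% of all nuclear genes for PIF4 and 4.60% against 3.97% for PIF5, while CRY2 stayed lower at 7.44% against 11.7%. In the upper 50% of the PIF4 list by fold enrichment the shares were 9.22% and 8.62%. No intervals were computed for these alternatives, so the small PIF differences are not shown to exceed counting error. Summits of all 3 proteins fell in 106 loci (3.05%, 2.52 to 3.67), beside 3.97% of all nuclear genes. Pseudogenes held CRY2 in 1.55%, PIF4 in 1.12% and PIF5 in 0.351% of 4843 cases. The 707 tRNA and snRNA genes, with a median length of 73 bp, held them in 12.9%, 13.6% and 3.11%. Neighbouring lncRNA loci shared some peaks: 29 of the 381 CRY2 peaks at these loci, 39 of the 500 PIF4 peaks and 14 of the 206 PIF5 peaks counted for more than 1 locus.

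CRY2 and the PIFs divided differently over the 2 classes of loci. CRY2 was at 177 separate loci (8.60%, 7.46 to 9.89) and at 215 overlapping ones (15.1%, 13.4 to 17.1), intervals that do not meet. PIF4 was at 310 separate loci (15.1%, 13.6 to 16.7) and 219 overlapping ones (15.4%, 13.6 to 17.4). PIF5 was at 134 (6.51%, 5.52 to 7.66) and 85 (5.98%, 4.86 to 7.34). The CRY2 split depended on length, and overlapping loci were longer. CRY2 was at 6.11% of separate and 10.6% of overlapping loci under 300 bp, but at 10.6% (8.85 to 12.8) and 8.95% (6.78 to 11.7) from 300 to under 600 bp, and at 11.1% and 20.4% from 600 to under 1200 bp. PIF4 was the most frequent protein at separate loci, while the CRY2 and PIF4 counts at overlapping loci were close in lists of unequal length. With lists of equal size, CRY2 was at 121 and PIF4 at 76 overlapping loci, and at 104 and 173 separate ones. Over all nuclear genes these lists gave CRY2 at 9.21% and PIF4 at 6.44%. A CRY2 lead was thus not particular to overlapping loci.

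**Figure D1:**
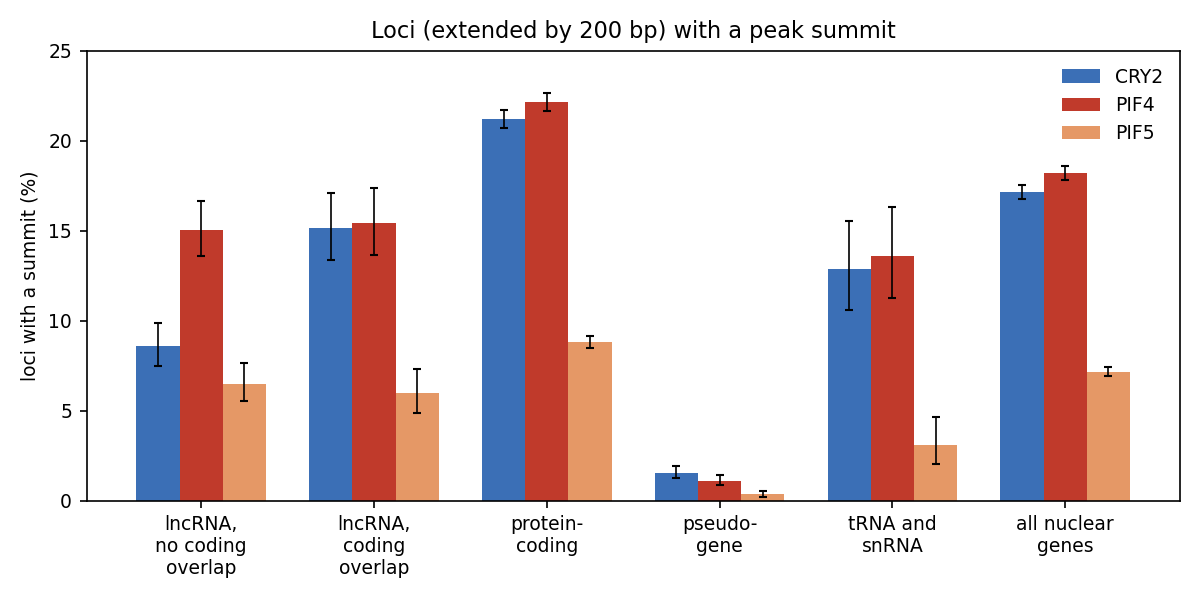
Share of loci, in percent, with a peak summit of CRY2, PIF4 or PIF5 inside the locus extended by 200 bp, for lncRNA loci with and without coding overlap and for other gene classes. Bars start at 0 and error bars are 95% Wilson intervals. CRY2 stands at 8.60% in separate lncRNA loci and 15.1% in overlapping ones, while PIF4 stands at 15.1% and 15.4%.

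Because a longer locus offers more room for a summit, loci were compared with coding genes within classes of length. In the class of 300 to under 600 bp separate lncRNA loci had the higher shares. There PIF4 was at 171 of 958 separate loci (17.8%, 15.6 to 20.4) and at 67 of 1286 coding genes (5.21%, 4.12 to 6.56). CRY2 was at 10.6% of these separate loci (8.85 to 12.8) and 4.74% of the coding genes (3.71 to 6.05), and PIF5 at 7.62% (6.10 to 9.47) and 2.02% (1.38 to 2.95). Under 300 bp the separate loci held PIF4 in 13.0% of 917 cases, against 9.67% of 455 coding genes, with overlapping intervals (11.0 to 15.3 and 7.28 to 12.7). In that class CRY2 stood at 6.11% against 6.81% and PIF5 at 5.56% against 5.27%, each within the other's interval. From 600 to under 1200 bp the 171 separate loci held CRY2 in 11.1%, PIF4 in 10.5% and PIF5 in 5.85%, and coding genes in 11.7%, 12.6% and 5.17%. The 13 separate loci of 1200 bp or more held PIF4 in 2 cases and CRY2 in 0, a count of 0 that allows a share of up to 23.1%. Per length, the extended separate loci held 19.2 PIF4 summits per 100 kb, 10.7 for CRY2 and 8.40 for PIF5. Extended coding genes held 7.95 for PIF4, 7.90 for CRY2 and 3.11 for PIF5. Extended tRNA and snRNA genes, which are shorter still, held 28.1 for PIF4, 27.2 for CRY2 and 6.57 for PIF5. Flanks make up more of a short window than of a long one. A density above that of coding genes was thus not particular to lncRNA loci.

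Long overlapping loci were the most often occupied lncRNA genes. At 1200 bp and above, 243 overlapping loci held CRY2 in 31.3% (25.8 to 37.4), PIF4 in 33.7% (28.1 to 39.9) and PIF5 in 14.8% (10.9 to 19.8). Coding genes of that length held them in 24.3%, 25.3% and 9.99%, below each of these intervals. From 600 to under 1200 bp, CRY2 was at 20.4% of overlapping loci (15.7 to 26.1) and 11.7% of coding genes. Looked at from the coding side, 1517 protein-coding genes were overlapped by a lncRNA locus. CRY2 was at 26.8% of them (24.6 to 29.0) and at 20.9% of the other 25927 coding genes (20.4 to 21.4). PIF4 was at 27.0% (24.8 to 29.3) against 21.9% (21.4 to 22.4), and PIF5 at 10.7% (9.28 to 12.4) against 8.69% (8.36 to 9.04). Within coding genes under 1200 bp, CRY2 was at 18.0% of the overlapped ones (13.8 to 23.0) and 9.46% of the others (8.73 to 10.3). At 2400 bp and above the CRY2 intervals met, at 29.0% (25.6 to 32.5) and 26.0% (25.2 to 26.8). The PIF4 intervals met from 1200 to under 2400 bp, at 25.04% (21.7 to 28.7) and 21.7% (20.9 to 22.6). The PIF5 intervals met in each of the 3 length classes, at 6.74% (4.31 to 10.4) and 4.39% (3.88 to 4.95) under 1200 bp, 11.6% (9.24 to 14.4) and 9.41% (8.86 to 10.01) from 1200 to under 2400 bp, and 11.6% (9.39 to 14.3) and 10.4% (9.78 to 11.0) above.

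**Figure D2:**
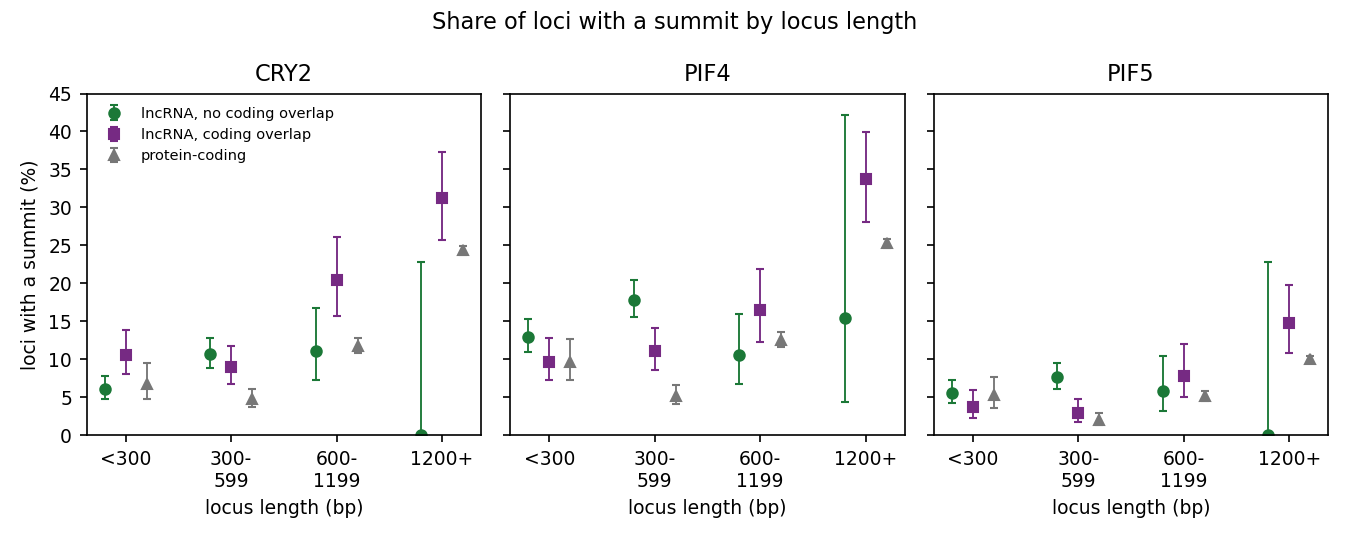
Share of loci, in percent, with a summit of CRY2 (left), PIF4 (middle) or PIF5 (right) in 4 classes of locus length in bp, for lncRNA loci without and with coding overlap and for protein-coding genes. Error bars are 95% Wilson intervals. In the class of 300 to under 600 bp the separate lncRNA loci lie above coding genes for each protein, at 17.8% against 5.21% for PIF4.

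Separate lncRNA loci lie in the space between coding genes, where PIF peaks are common, so their bodies without the flanks were next set against space with no annotated gene at the same distance from the nearest coding gene. Summits were denser in the lncRNA bodies. The 644.3 kb of separate lncRNA bodies held 188 PIF4 summits, against 84.2 at the density of unannotated space, a ratio of 2.23 (exact Poisson interval 1.92 to 2.58). They held 105 CRY2 summits against 31.5, a ratio of 3.33 (2.73 to 4.04), and 92 PIF5 summits against 30.4, a ratio of 3.03 (2.44 to 3.72). The intervals treat the density of unannotated space as exact. This comparison was added with the values in view, and chromatin state and transposon content, which may differ between annotated and unannotated space, were not tested.

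In each of the 4 distance classes beyond 200 bp, the lower bound of the lncRNA density lay above the density of unannotated space for all 3 proteins. Over 500 and up to 1000 bp, lncRNA bodies had 31.4 PIF4 summits per 100 kb (24.2 to 40.2), against 14.8 in unannotated space. CRY2 had 17.5 per 100 kb (12.2 to 24.3) against 5.14 at that distance, and PIF5 12.5 (8.07 to 18.4) against 5.38. Beyond 2000 bp, PIF4 had 21.6 per 100 kb (14.6 to 30.9) against 5.10, CRY2 12.3 (7.14 to 19.6) against 1.61, and PIF5 7.21 (3.46 to 13.3) against 1.58. Within 200 bp of a coding gene only 25.5 kb were lncRNA bodies, and the intervals for CRY2 (4.27 to 40.2 against 17.4), PIF4 (18.8 to 72.1 against 31.9) and PIF5 (8.64 to 51.2 against 11.7) spanned the density of the unannotated space. Where at least 20 coding genes lay within 50 kb, which leaves out gene-poor regions, the CRY2 ratio over all distances was 3.10, the PIF4 ratio 2.05 and the PIF5 ratio 2.77. The contrast beyond 2000 bp was smaller in these regions. PIF4 there had 33.8 per 100 kb (21.4 to 50.8) against 14.9. CRY2 had 19.1 (10.2 to 32.7) against 3.79, and PIF5 11.8 (5.08 to 23.2) against 4.63.

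**Figure D3:**
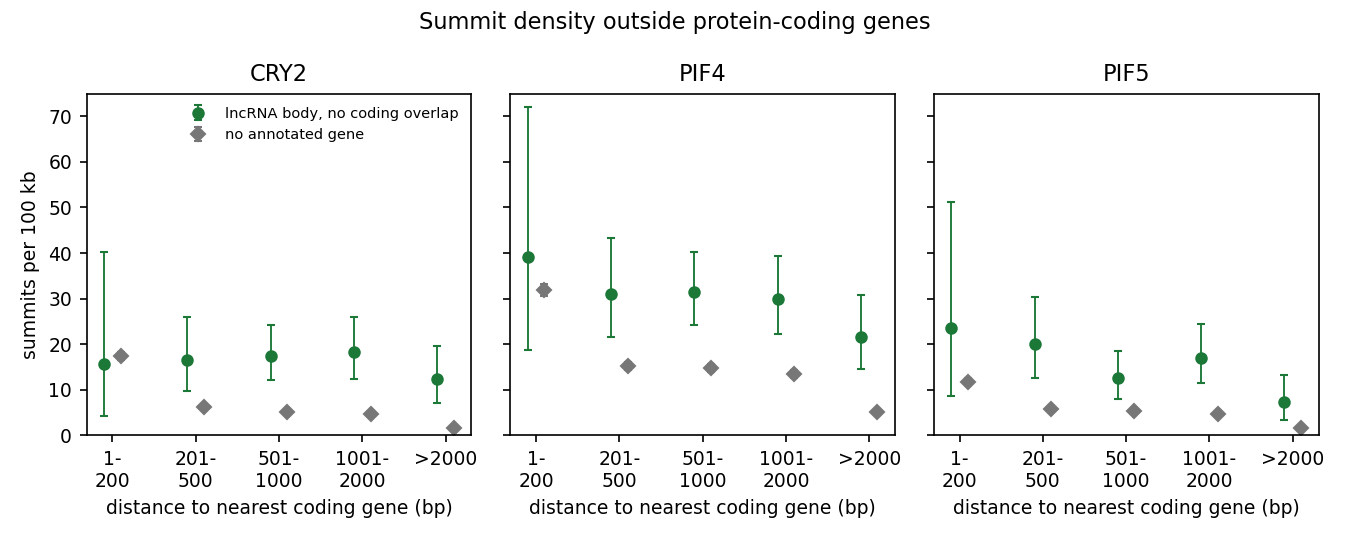
Summits per 100 kb outside protein-coding genes against the distance to the nearest coding gene in bp, in bodies of separate lncRNA loci (circles) and in space without an annotated gene (diamonds), for CRY2 (left), PIF4 (middle) and PIF5 (right). Error bars are exact 95% Poisson intervals. Over 500 and up to 1000 bp the PIF4 density is 31.4 in lncRNA bodies and 14.8 in unannotated space.

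Occupancy of separate loci was higher where coding genes around them were denser. Of 138 separate loci with under 10 coding genes within 50 kb, 2 held CRY2, 1 held PIF5 and 0 held PIF4, a count that allows a share of up to 2.17%. With 10 to 19 coding genes PIF4 was at 6.62% of 317 loci (4.37 to 9.91), with 20 to 29 at 16.9% of 1177 (14.9 to 19.2), and with 30 or more at 21.1% of 427 (17.5 to 25.2). For CRY2 these shares were 3.79%, 8.92% and 13.6%, and for PIF5 2.84%, 7.48% and 8.43%. By chromosome, PIF4 was at 12.9% of lncRNA loci on chromosome 3 and 16.6% on chromosome 5, the lowest and the highest of the 5, and CRY2 at 9.59% on chromosomes 1 and 3 and 14.1% on chromosome 5. All nuclear genes were not split by gene density or chromosome, so neither pattern can be called particular to lncRNA loci.

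Within separate loci the summits fell mostly in the transcribed body. The strongest summit lay in the body rather than a flank at 125 of 177 loci for CRY2 (70.6%), 219 of 310 for PIF4 (70.6%) and 107 of 134 for PIF5 (79.9%). Over all nuclear genes, a summit lay in the body at 4449 of 6495 genes with CRY2, 3630 of 6895 with PIF4 and 1503 of 2716 with PIF5. A CRY2 summit in the body was thus not particular to separate loci. All nuclear genes had a median length of 1796 bp, so bodies took a larger part of their windows. Counted once each, 153 CRY2, 275 PIF4 and 120 PIF5 summits lay at separate loci. These summits were remote from coding genes by the choice of loci: of the 275 PIF4 summits, 250 lay over 200 bp from any coding gene and 104 over 1000 bp. At overlapping loci the strongest summit lay inside a coding gene at 67.9% of loci for CRY2, 53.0% for PIF4 and 55.3% for PIF5. For comparison, 59.5% of all CRY2 summits, 33.1% of all PIF4 summits and 35.7% of all PIF5 summits lay inside coding genes. The 200 bp flank set few loci on its edge: 28 loci had their nearest CRY2 summit at 151 to 200 bp and 22 just outside at 201 to 250 bp, with 34 and 33 for PIF4 and 10 and 13 for PIF5.

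PIF4 peaks at separate loci were stronger in the median than their whole list. They were not compared with other PIF4 peaks outside coding genes. The 275 peaks had a median fold enrichment of 2.87 (range 1.84 to 5.00), beside 2.46 over the whole PIF4 list. Each list was ranked by fold enrichment and cut into 10 steps with nearly equal numbers of peaks. Separate loci took 12 of 993 peaks in the weakest step of the PIF4 list (1.21%) and 49 of 992 in the strongest (4.94%). At overlapping loci PIF4 peaks had a median of 2.47, close to the list. PIF5 peaks at separate loci had a median of 2.48, beside 2.40 for the list, and took 3.71% of its weakest and 4.79% of its strongest step. CRY2 peaks had a median of 2.30 at separate loci and 2.29 in the whole list, and separate loci took 2.32% of the weakest and 2.46% of the strongest step. The share at separate loci thus climbed along the PIF4 list, while the CRY2 list showed no steady gradient.

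**Figure D4:**
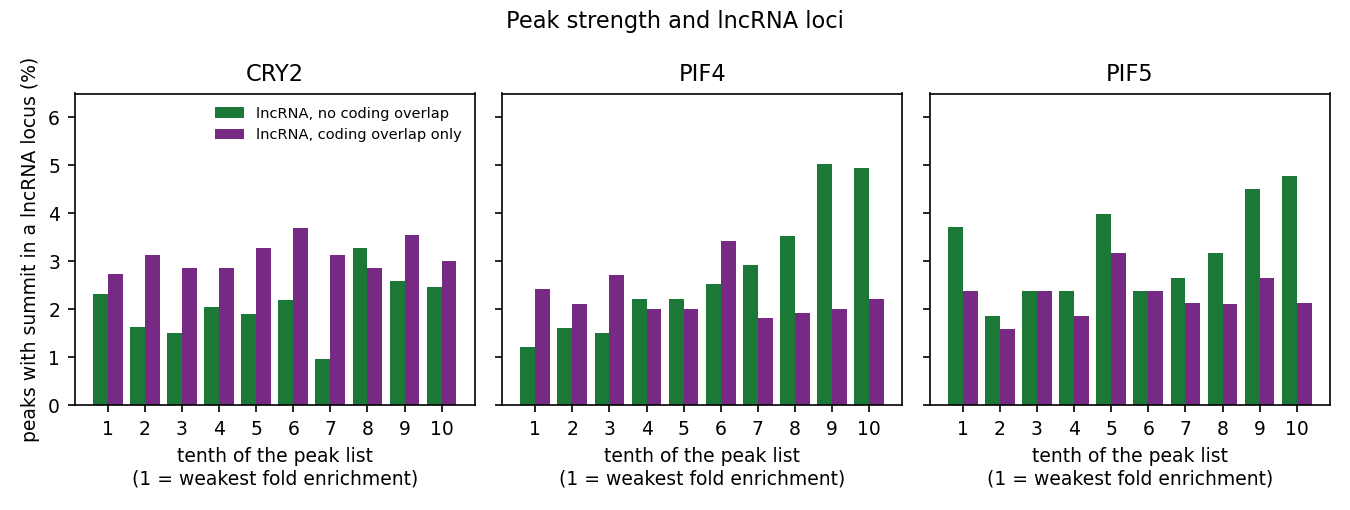
Percent of peaks with a summit at a lncRNA locus in each of 10 equal steps of the peak list, from the weakest (1) to the strongest (10) fold enrichment, for CRY2 (left), PIF4 (middle) and PIF5 (right). Green bars are peaks at loci without coding overlap and purple bars peaks at overlapping loci only. For PIF4 the green bars stand at 1.21% in the weakest step and 4.94% in the strongest.

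CRY2 at separate loci was mostly accompanied by PIF4. Of 177 separate loci with CRY2, 124 also held PIF4 (70.1%, 62.9 to 76.3), beside 49.8% of all nuclear genes with CRY2. Of those 6495 genes, 5822 were protein-coding, and CRY2 sites outside coding genes were not compared apart. The same 124 were 40.0% of the separate loci with PIF4 (34.7 to 45.5), beside 46.9% over all nuclear genes. PIF5 was at 69 of the 177 CRY2 loci (39.0%, 32.1 to 46.3), beside 26.7% over all genes. Of 134 separate loci with PIF5, 122 held PIF4 (91.0%, 85.0 to 94.8) beside 87.8% over all genes, and 69 held CRY2 (51.5%, 43.1 to 59.8) beside 63.8%. At overlapping loci with CRY2 the share that also held PIF4 was 46.0% (39.5 to 52.7), near the value of all genes. CRY2 alone was at 49 separate loci and at 109 overlapping ones, PIF4 alone at 129 and 85, and PIF5 alone at 8 and 2. All 3 proteins were at 65 separate (3.16%) and 41 overlapping loci (2.89%), beside 3.97% of all nuclear genes.

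CRY2 summits at separate loci also lay close to PIF4 summits. Of the 153, 76 (49.7%, 41.9 to 57.5) had a PIF4 summit within 100 bp, beside 28.3% of the whole CRY2 list. That list had 59.5% of its summits inside coding genes, against 1 of the 152 CRY2 summits at separate loci only. CRY2 summits outside coding genes were not compared apart, so the closeness cannot be called particular to lncRNA loci. At overlapping loci 59 of 229 CRY2 summits (25.8%, 20.5 to 31.8) had a PIF4 summit within 100 bp. Of PIF5 summits at separate loci, 103 of 120 (85.8%, 78.5 to 91.0) had a PIF4 summit within 100 bp, beside 79.8% of the list. PIF4 and CRY2 peaks were stronger in the median at loci that held more proteins. The strongest PIF4 peak per locus had a median of 3.51 at the 106 loci with all 3 proteins, 2.66 at loci with 2 and 2.37 at loci with PIF4 alone. The CRY2 medians were 2.55, 2.30 and 2.24. PIF5 showed no such order, with medians of 2.58 at loci with all 3 proteins, 2.38 with 2 and 2.43 at the 10 loci with PIF5 alone. These medians were not taken over all nuclear genes, so the order cannot be called particular to lncRNA loci. Locus length was not held equal: all 3 proteins were at 2.07% of lncRNA loci under 300 bp and 8.20% from 1200 bp.

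Among the 65 separate loci with all 3 proteins, 8 were taken by the best mean rank of fold enrichment, and at each of the 8 all strongest summits lay in the lncRNA body. AT3G03035, 990 bp long and 192 bp from AT3G15220, led them with fold enrichments of 3.45 (CRY2), 4.99 (PIF4) and 6.23 (PIF5). Its CRY2 peak covered chromosome 3, 5123953 to 5126444 (TAIR10), its CRY2 and PIF4 summits were 5 bp apart, and the summits lay 1120 to 1129 bp from AT3G15220. AT5G08975 lies 52 bp from OBP4, a DOF transcription factor gene of cell growth, and had 4.31 (CRY2), 4.88 (PIF4) and 4.31 (PIF5). The 3 summits were 235 to 371 bp from OBP4, inside the lncRNA gene, and the PIF4 peak spanned chromosome 5, 24480040 to 24483357. At both loci the summits lay in the lncRNA gene and outside the nearest coding gene.

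AT5G01475, 1192 bp from AT5G08139, had 3.27 (CRY2), 4.57 (PIF4) and 5.30 (PIF5), with CRY2 and PIF4 summits 1 bp apart. AT2G04015 lies 1430 bp from RGA1, which encodes RGA, a DELLA repressor of gibberellin responses. It had a CRY2 peak of 2.61, a PIF4 peak of 5.00 at chromosome 2, 258756 to 259757, and a PIF5 peak of 4.60. That PIF4 peak ranked 34th in the PIF4 list and was the strongest PIF4 peak at any lncRNA locus. AT5G08745 and AT5G08755, next to AT5G57670, shared the same 3 peaks, with 2.59 (CRY2), 4.46 (PIF4) and 6.42 (PIF5). AT1G04453, near the trehalose-phosphate synthase family gene TPS7, had 3.16, 4.06 and 3.34, and AT5G09170, near FP3, had 3.10, 3.77 and 4.37, in the order CRY2, PIF4, PIF5. The strongest PIF5 peak at any lncRNA locus, 6.53, lay at AT2G09585 and AT2G09590, next to AT2G44920, and was singled out after its value was seen.

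The 8 overlapping loci chosen in the same way held their strongest summits in the overlapped coding gene or up to 429 bp from a coding gene. AT2G45685 overlaps TCP9, a TCP-family transcription factor gene, and had 3.62 (CRY2), 4.09 (PIF4) and 3.41 (PIF5), all with summits inside TCP9. Its CRY2 peak covered chromosome 2, 18819344 to 18823409. AT3G63445, 3801 bp long, overlaps CKX6, a cytokinin oxidase gene that breaks down cytokinin. It had 3 CRY2 summits, the strongest at 2.32, a PIF4 peak of 4.85 and a PIF5 peak of 5.37 at chromosome 3, 23422234 to 23423530. The strongest of these summits lay 299 to 429 bp from the nearest coding gene, TRM5, and not in CKX6.

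AT5G09425 overlaps IAA9, an Aux/IAA repressor gene of auxin signalling, and had 2.87, 3.96 and 2.87 for CRY2, PIF4 and PIF5. The CRY2 summit lay inside IAA9 and the PIF4 and PIF5 summits 50 and 5 bp outside it, in the lncRNA body. AT5G06865 overlaps PGIP1, a gene for an inhibitor of fungal polygalacturonases, and had 3.15, 3.90 and 3.14 in the same order. AT2G08775 overlaps CPK25, a calcium-dependent protein kinase gene, and had 2.54, 4.08 and 3.08, with summits 81 to 271 bp from the next gene, AT2G35880, and not in CPK25. AT3G52072, AT5G00785 and AT4G39838, over genes known only by tag, had CRY2 peaks of 3.31, 2.98 and 2.96 and PIF4 peaks of 4.10, 3.70 and 3.53. Most summits per locus, 5 over the lists, were at AT3G63445, at AT2G30362 over SIP4 and at AT5G59732 over EXO70H7, a gene of the exocyst family.

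**Figure D5:**
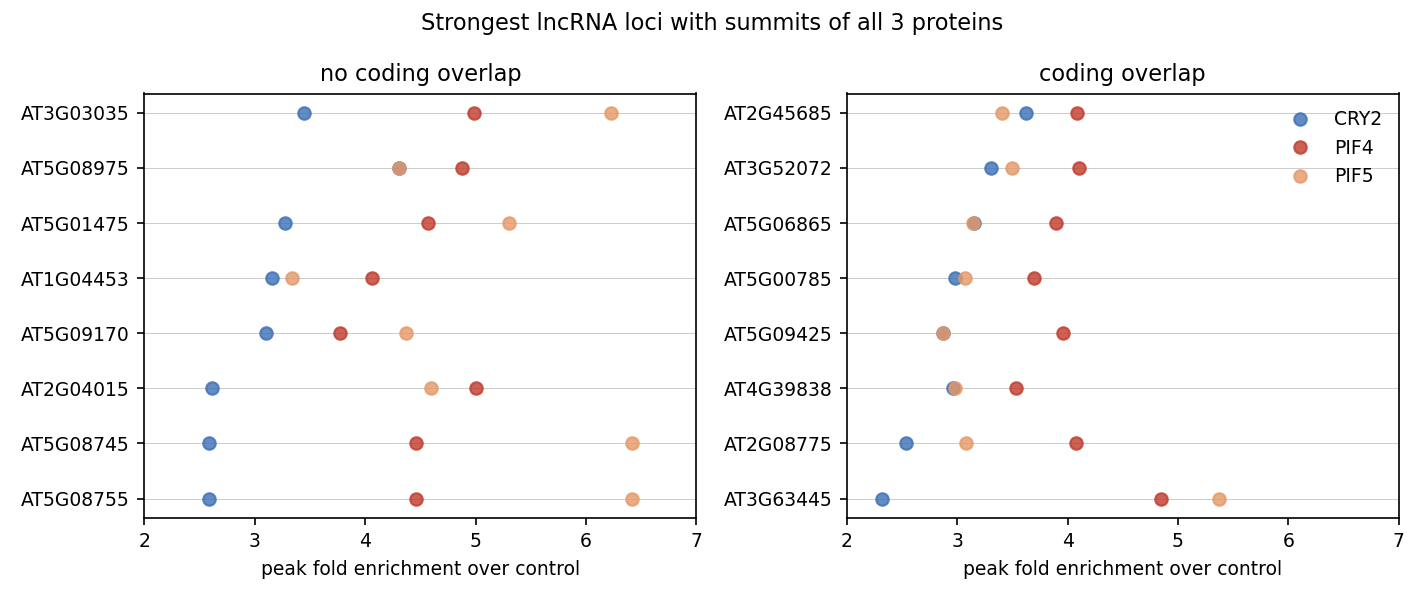
Fold enrichment over control of the strongest CRY2, PIF4 and PIF5 peak at the 8 separate (left) and 8 overlapping (right) lncRNA loci with all 3 proteins and the best mean rank, ordered by that rank from the top. Each point is 1 peak of a pooled list. PIF5 reaches 6.42 and 6.23 at separate loci and 5.37 at the overlapping locus AT3G63445.

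Loci with the summit of 1 protein alone were led, for CRY2 at separate loci, by peaks of 3.00 at AT4G07230, 2.99 at AT2G05705 and 2.87 at AT1G04087, and in all 3 the summit lay in a flank and not in the body. AT2G05705 lies 10330 bp from its nearest coding gene. At overlapping loci CRY2 alone reached 4.92 at AT1G04047 (over AT1G01725, chromosome 1, 267543 to 270498), 3.76 at AT2G03905 and 3.04 at AT1G67365, which overlaps the meiotic axis gene ASY1. The strongest CRY2 summit at AT1G67365 lay outside ASY1, 224 bp from its nearest coding gene, AT1G67360. PIF4 alone reached 4.48 at AT5G09085, 4.04 at AT2G09730 and 3.75 at AT2G07005 near HMGB4 among separate loci. The summits at AT5G09085 and AT2G07005 lay in a flank. Among overlapping loci PIF4 alone reached 3.97 at AT3G03225, 3.96 at AT3G51238 over F3H, the flavanone 3-hydroxylase gene of flavonoid synthesis, and 3.48 at AT2G07855 over scpl10. The summit at AT3G51238 lay in a flank, 222 bp outside F3H, and that at AT2G07855 in the lncRNA body, 40 bp outside scpl10. PIF5 alone had 3.97 at AT3G09365, 2707 bp from SHOT1, and a single peak of 3.15 shared by AT3G01975 and AT3G01985. The 2 overlapping loci with PIF5 alone were AT3G07205 over the tetraspanin gene TET3 (2.47) and AT3G08070 (2.40). At 10 of these loci a peak of another protein reached into the extended locus with its summit elsewhere, so "alone" refers to summits.

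Of 116 listed genes of light, clock, hormone and growth control, 12 were overlapped by a lncRNA locus or were the nearest coding gene within 1 kb of one, and 13 loci were involved. A summit fell in 3 of the 13 (23.1%), beside 21.7% of all 2658 lncRNA loci that overlap a coding gene or lie within 1 kb of one, a share near that background. AT2G09405, 503 bp from PAR1, an atypical bHLH gene of shade responses, had a PIF4 peak of 4.10 (chromosome 2, 17836901 to 17838823) and a PIF5 peak of 3.58, both with summits in the lncRNA body, and no CRY2 summit. AT5G15845 is 5211 bp long and overlaps the flowering-time gene CO and its neighbours, COL1 among them. It held a CRY2 peak of 2.59 with its summit in COL1 and a PIF4 peak of 2.27, whose summit lay in AT5G15853. Neither summit lay in CO. AT1G69572, over AT1G69570, held a PIF4 peak of 2.13 in its flank.

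The other 10 of these loci held no summit. They included AT5G01675, a 6230 bp locus over the flowering repressor gene FLC, AT3G09745 over PIL2 (also named PIF6), AT2G18917 over the photoreceptor gene LKP2, AT1G09523 over BZR1, a brassinosteroid-response factor, and AT3G08135, 55 bp from the brassinosteroid synthesis gene DWF4. Near PIL6 (PIF5), the locus AT3G09185 at 420 bp held none. AT1G69572 and AT5G01675 were the 2 members among 17 loci listed as studied non-coding RNA genes, and the others stood in other classes of the table.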

How the data were processed

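The material was 1 narrowPeak list per protein, each pooled over replicates by the authors, from 7 anti-FLAG and 6 IgG libraries. MACS2 2.0.10, Bowtie2 2.1.0, CASAVA 1.8.2 and the build TAIR10 are named, with no role or order, per the submitters' processing notes. In the deposited lists the fold enrichment over control is a ratio for each peak. The deposited −log10 p-value per peak was used in no test. The deposited score is the whole part of 10 times that value, and another score column holds -1 in every line in place of a q-value. Summits were taken as the deposited offset added to the peak start. Columns of other samples left unused numbered 0.

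Loci came from the RefSeq gene table, whose assembly name (TAIR10.1) differs from that of the lists, so none of its coordinates are printed. The frames were checked: 49.3% of PIF4 summits lay outside coding genes but within 1 kb of one, and 20.2% after a shift of 2000 bp. A locus was extended by 200 bp, and overlap was judged on the locus without its flank. Shares have 95% Wilson intervals and densities exact Poisson intervals. Both cover counting error only, loci are not replicates, and the files give no read depth. A count of 0 was given the limit of 3 counts. Counting code was tested on simulated data with planted summits. Python 3.11.15 was used with numpy 2.4.6, pandas 2.3.3, scipy 1.17.1 and matplotlib 3.10.9.

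Named loci were, for each class, the 8 loci with all 3 proteins whose fold enrichments ranked best on average, the 3 strongest for each protein alone, the 3 with most summits, members of a list of studied loci, and loci with a summit at listed genes. Members and lists were chosen with earlier results of these data known. The comparison with unannotated space, the split by gene density and the view from overlapped coding genes were chosen after seeing the data. Strand and sequence motifs were not analysed here.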

Additional observations from a re-analysis of the deposited data

How the results depend on the processing

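No paired analysis was possible because replicates were pooled in each list, which likewise prevented leaving out a replicate. Depth is unknown, so absence of a summit is not absence of binding. Transposons and chromatin state were not separated, and overlapping genes share summits.

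Counts of loci with a summit followed the window and the list. After each setting, shares of all lncRNA loci are set beside those of all nuclear genes, in the order CRY2, PIF4, PIF5. With no flank, CRY2 had 259 lncRNA loci in all and 134 overlapping ones, PIF4 had 137 overlapping and PIF5 53 overlapping, and all 3 proteins met at 69 loci, 24 of them overlapping. Shares per protein were 7.44%, 10.2% and 4.60%, beside 11.7%, 9.58% and 3.97%. With a 500 bp flank, PIF4 had 331 and PIF5 145 overlapping loci, and all 3 proteins 165 loci, 82 of them overlapping. Shares per protein were 15.6%, 21.3% and 8.65%, beside 20.9%, 24.2% and 9.74%. With a 1000 bp flank, CRY2 had 746 loci (359 separate, 387 overlapping), PIF4 1058 (615 and 443), PIF5 460 (258 and 202) and all 3 proteins 263 (141 and 122). Per protein this gave 21.4%, 30.4% and 13.2%, beside 25.2%, 31.0% and 12.8%. When any overlap of a peak counted, PIF4 had 920 loci (522 separate, 398 overlapping), PIF5 365 with 169 overlapping, and all 3 proteins 205 (106 and 99). Per protein this gave 16.4%, 26.4% and 10.5%, beside 21.5%, 28.2% and 11.2%. With at least 50% of the peak inside, all 3 proteins met at 37 separate loci. Shares per protein were 10.7%, 13.0% and 5.49%, beside 17.0%, 17.4% and 7.01%. In the upper 50% of each list, CRY2 had 219 loci (102 separate, 117 overlapping), PIF4 321 with 111 overlapping, PIF5 117 (74 and 43) and all 3 proteins 51 (31 and 20). Per protein this gave 6.29%, 9.22% and 3.36%, beside 8.92%, 8.62% and 3.51%. With lists of equal size, CRY2 had 225 loci (104 separate, 121 overlapping), PIF4 249 (173 and 76), and all 3 proteins 70 with 26 overlapping. Shares per protein were 6.47%, 7.16% and 6.29%, beside 9.21%, 6.44% and 7.17%. The other counts under these alternatives, and those under both other definitions of coding overlap, stayed within 1.5 times the reported ones. Of 39 named loci, the number of proteins changed at 10 with no flank, 4 at 500 bp, 8 at 1000 bp, 10 with any overlap, 19 with at least 50% of the peak inside, 4 in the upper 50% and 2 with equal lists.

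The log2 ratio of the share of separate loci over coding genes was -1.30 (CRY2), -0.56 (PIF4) and -0.44 (PIF5) over all lengths. It was -0.16, 0.42 and 0.076 under 300 bp, in the order CRY2, PIF4, PIF5. From 300 to under 600 bp it was 1.17, 1.78 and 1.91, and from 600 to under 1200 bp -0.080, -0.26 and 0.18. From 1200 bp it could be given for PIF4 alone, at -0.72. Per kb of merged windows it was 0.44, 1.28 and 1.43. For overlapping loci it was -0.49, -0.52 and -0.56 over all lengths. Under 300 bp it was 0.64, 0.0011 and -0.52, from 300 to under 600 bp 0.92, 1.09 and 0.53, from 600 to under 1200 bp 0.80, 0.39 and 0.60, from 1200 bp 0.36, 0.42 and 0.57, and per kb 0.80, 0.77 and 0.74. At separate loci the sign thus turned in 1 of 3 length classes for CRY2, 2 of 4 for PIF4 and 3 of 3 for PIF5. At overlapping loci it turned in each class except for PIF5 under 300 bp, with PIF4 there near 0. Coding genes were longer, and other causes were not tested. The ratios to unannotated space kept their direction with 20 distance classes and in gene-dense regions, alternatives chosen after seeing the data.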
